A study of Homo sapiens with 6 samples.

Results

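Gene deserts are long stretches of a chromosome without protein-coding genes. Here a gene desert region is an autosomal stretch under a peak of lactylated histone H4 that lies over 100 kb from the span of every RefSeq protein-coding gene. Peaks of 4 libraries were merged where they shared at least 1 bp, and 6478 of the 70442 merged autosomal regions met this distance. The other 63964 regions, which lie inside or within 100 kb of a coding gene, are called the rest. The choice used positions only, not peak height or treatment.

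The libraries came from PLC/PRF/5, an established human hepatocellular carcinoma cell line, and were made by chromatin immunoprecipitation and sequencing of histone H4 lactylated at lysine 5 (H4K5la). The lactate group held 2 libraries, replicates 2 and 3, from cells given 20 mM lactate for 24 h. The control group held 2 libraries, also replicates 2 and 3, labelled as control for the treatment. The labels do not state that replicates were grown as separate cultures, and a single cell line was used throughout. The p-values therefore describe only these libraries, which may differ for technical reasons, and they do not measure the size of a difference. The 2 inputs, for which no list of peaks was given, were not used here. A peak marks where the signal passed the authors' threshold, and the absence of a peak does not show the absence of the mark. The lists hold no expression values, so the hepatic label could be set only against peaks in marker genes. Of 20 hepatocyte genes, 5 and 4 held a peak in the lactate libraries, and 4 and 6 in the control libraries. A peak in every library was held by 3 of the 20 hepatocyte genes, 2 of 6 blood cell genes and 2 of 5 fibroblast genes. ALB, APOB, TTR and AFP, which encode albumin, apolipoprotein B, transthyretin and alpha-fetoprotein, were among those with no peak. So were the blood cell genes PTPRC and HBB and the fibroblast genes COL3A1 and DCN. The share over all coding genes is not given, so these counts do not decide on the hepatic label.

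Histone lactylation is the transfer of a lactyl group to lysine, and it uses lactyl groups that derive from the lactate of glycolysis. Acetyltransferases such as p300 can add the group, and lysine 5 of histone H4 is also a well known site of acetylation in active chromatin. Gene deserts often flank genes that direct embryonic development, and some hold enhancers that act on such genes over long distances. They also hold genes of long noncoding RNAs (lncRNAs), pseudogenes and microRNA genes.

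The sequences that could be placed under desert peaks were the start windows of noncoding genes, 300 bases long, with 250 bases before and 50 after the start (RefSeq, GRCh38.p14). Of 2851 such windows in deserts, 144 lay at least in part under a desert peak, which is 5.05%, against 13.9% of the windows outside deserts. The windows outside deserts were not limited to noncoding genes, so gene class and place cannot be told apart in this contrast. The 144 windows belonged to 123 genes and 117 regions. The 4 windows printed here are those of best rank by fold enrichment among the regions that hold a start window, with 2 regions present in all 4 libraries, 1 present with lactate alone and 1 present in control alone. Capitals mark CG dinucleotides, the sites of DNA methylation.
LOC105379477, a lncRNA gene at chr20:29448267-29448566 on the plus strand, with peaks in all 4 libraries: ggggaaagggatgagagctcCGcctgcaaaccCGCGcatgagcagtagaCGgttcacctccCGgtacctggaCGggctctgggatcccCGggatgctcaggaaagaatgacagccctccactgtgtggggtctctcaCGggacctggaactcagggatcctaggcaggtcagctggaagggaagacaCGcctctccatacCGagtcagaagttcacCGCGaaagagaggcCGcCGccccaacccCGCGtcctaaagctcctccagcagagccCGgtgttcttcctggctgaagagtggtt
LINC01271, a lncRNA gene at chr20:50321293-50321592 on the minus strand, with peaks in all 4 libraries: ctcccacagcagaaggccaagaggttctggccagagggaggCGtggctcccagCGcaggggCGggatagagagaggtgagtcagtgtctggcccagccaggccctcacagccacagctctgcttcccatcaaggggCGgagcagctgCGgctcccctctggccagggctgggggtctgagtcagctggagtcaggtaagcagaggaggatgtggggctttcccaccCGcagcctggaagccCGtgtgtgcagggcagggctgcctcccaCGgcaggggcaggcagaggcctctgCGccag
LOC101928012, a lncRNA gene at chr7:112622131-112622430 on the plus strand, with peaks in both lactate libraries and none in control: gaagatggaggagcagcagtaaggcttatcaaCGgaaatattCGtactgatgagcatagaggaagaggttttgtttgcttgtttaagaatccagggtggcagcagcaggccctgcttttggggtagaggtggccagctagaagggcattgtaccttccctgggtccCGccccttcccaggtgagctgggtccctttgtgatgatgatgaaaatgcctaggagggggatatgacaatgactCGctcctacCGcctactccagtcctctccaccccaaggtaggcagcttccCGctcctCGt
LINC01170, a lncRNA gene at chr5:124438471-124438770 on the minus strand, with peaks in both control libraries and none with lactate: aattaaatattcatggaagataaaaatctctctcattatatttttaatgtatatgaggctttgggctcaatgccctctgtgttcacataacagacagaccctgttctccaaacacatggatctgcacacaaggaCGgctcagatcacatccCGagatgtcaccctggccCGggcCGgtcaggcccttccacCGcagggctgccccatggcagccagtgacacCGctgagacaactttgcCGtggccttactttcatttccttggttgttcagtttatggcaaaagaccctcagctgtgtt

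The windows at LOC105379477, LINC01271, LOC101928012 and LINC01170 held 17, 9, 7 and 7 CG dinucleotides, and their GC content was 61.7, 68.0, 54.0 and 48.7%. The window of LINC01271 lies under a peak whose fold enrichment was 16.8 and 21.6 with lactate, and 8.54 and 13.1 in control. The summits held 34 and 49 reads with lactate, and 35 and 51 in control. Local background was 0.795 and 0.770 with lactate, and 2 and 2 in control, so the fold cannot be read as a change between groups. The nearest coding gene is CEBPB, a leucine-zipper transcription factor of liver and adipose tissue, at a distance of 128339 bp. The window of LINC01170 lies under control peaks with a fold of 11.7 and 7.07, 198105 bp from ZNF608, a zinc finger gene.

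Start windows under a desert peak were richer in G and C than desert windows without a peak. Their median GC content was 58.7%, against 42.0% for the 2707 desert windows without a peak, and it was 60.0% where the peak was in all 4 libraries. Across all 33725 autosomal windows, which were not limited to noncoding genes, the median was 58.7%. The median number of CG dinucleotides was 10 under a desert peak, 2 in desert windows without a peak and 14 over all windows.

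Short letter motifs were searched on both strands of these windows. The ETS motif CCGGAAG was found in 15.97% of the windows under a desert peak, in 1.77% of the desert windows without a peak and in 10.3% of all autosomal windows. The CTCF motif AGGGGGC was found in 16.7, 3.25 and 14.3% of the same sets. The AP-1 motif TGANTCA went the other way, with 6.94, 13.7 and 7.67%, and so did the HNF1 motif GTTAAT, with 8.33, 13.3 and 6.90%. The FOXA motif TGTTTAC was found in 7.64, 5.69 and 3.45%, the HNF4A motif CAAAGTC in 5.56, 4.25 and 3.37%, and the E-box CACGTG in 2.78, 2.99 and 7.18%. No motif here contains another. Base composition differs between these sets, and the set of all autosomal windows was not limited to noncoding genes. The part of composition and gene class in the shares was not tested, and a letter match does not show that a factor is bound.

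Desert peaks were fewer, narrower and covered less of the genome in both lactate libraries than in either control library. The lactate libraries held 3223 and 3203 desert peaks, and the control libraries 4447 and 4238. The groups did not overlap, with means of 3213 ± 14.1 peaks with lactate and 4342.5 ± 148 in control (SD, n = 2 each), a ratio of 0.740. The rest gave a ratio of 0.724. The covered length was 1689 and 1629 kb with lactate, and 2847 and 2652 kb in control, a ratio of 0.603 in deserts and of 0.528 in the rest. Each of these differences gave p = 0.333 by exact permutation (two-sided, 6 assignments), the smallest value that 2 against 2 libraries allow.

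With each library limited to its 37951 peaks of highest -log10 p, the ratio of desert peaks was 1.02. This setting fixes the list length, so the ratio follows the share of peaks that lay in deserts. It cannot test the lower number of desert peaks. The ChIP libraries also differed in depth relative to their input, with 1.17 and 1.32 ChIP reads for each input read with lactate and 1.42 and 1.34 in control. The part of depth in the number of peaks was not tested.

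**Figure D1:**
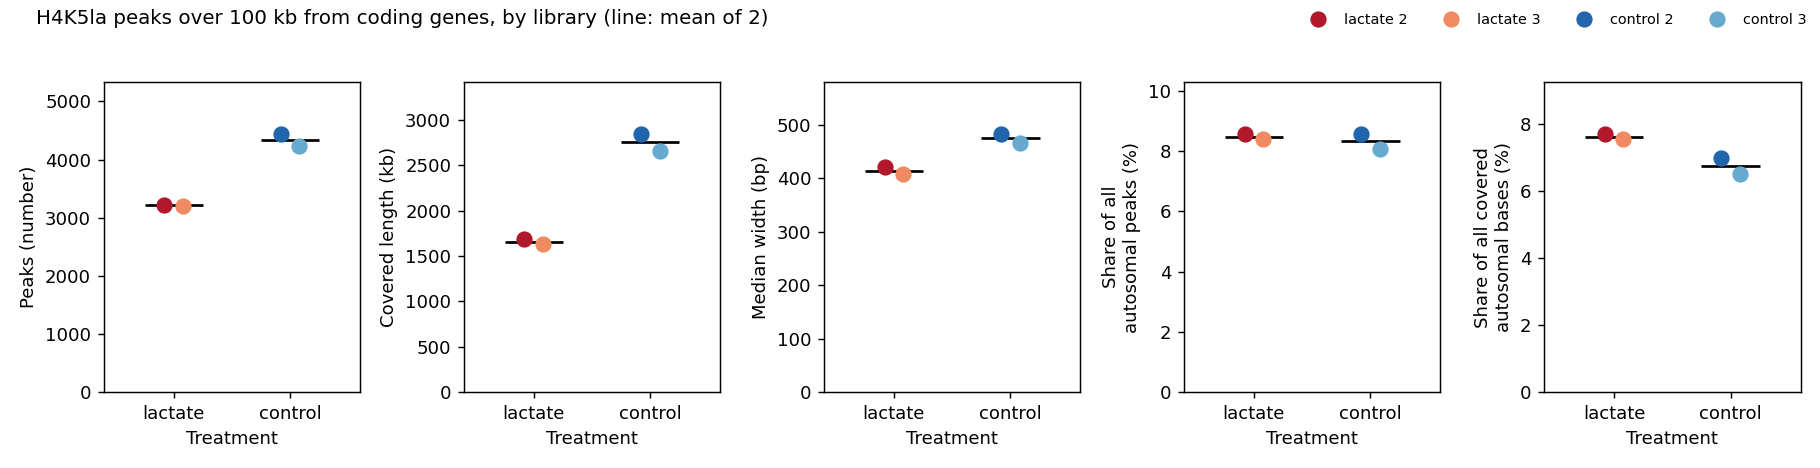
Desert peaks in each of the 4 libraries, from left to right: number of peaks, covered length in kb, median width in bp, share of all autosomal peaks in percent and share of all covered autosomal bases in percent. Each point is 1 library, with lactate left of control, and lines are means of 2; both lactate libraries lie below both control libraries in the first 3 panels, overlap with them in the share of peaks and lie above them in the share of bases.

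The share of the autosomal peaks that lay in deserts did not separate the groups. It was 8.55 and 8.41% with lactate, and 8.58 and 8.06% in control, a difference of 0.162 percentage points with an exact two-sided permutation p of 1. The 2 groups overlapped, and the sign of the difference changed under 3 of the other settings. By covered bases, deserts took 7.72 and 7.54% of the peak length with lactate, and 6.98 and 6.51% in control. Both lactate libraries lay above both control libraries here, by 0.884 percentage points on average (exact permutation p = 0.333, the smallest possible). Where noncoding genes also defined the desert, the difference was 0.0479 points.

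Desert peaks were also narrower with lactate. The median desert peak was 420 and 408 bp wide with lactate, and 483 and 466 bp in control, a difference of -60.5 bp. In the rest the medians were 452 and 440 bp with lactate, and 555 and 545 bp in control. Wide desert peaks were scarce with lactate. Peaks of 1 kb or more numbered 196 and 184 with lactate, and 526 and 475 in control. Peaks of 2 kb or more numbered 13 and 9 with lactate, and 93 and 93 in control, a ratio of 0.118 in deserts against 0.116 in the rest.

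Compared with the rest of the same library, desert peaks were narrower, rested on fewer reads and had a slightly higher fold enrichment. The authors' fold enrichment is the signal at the summit over the local background. Its median in deserts was 7.36 and 7.72 with lactate, and 7.44 and 7.98 in control. In the rest it was 7.11 and 7.28 with lactate, and 7.13 and 7.57 in control. Deserts were higher in 4 of 4 libraries, by 0.356 on average (exact two-sided sign-flip test, p = 0.125, the smallest value 4 libraries allow). Where noncoding genes also defined the desert, which left 561 regions, the difference was 0.00759 (exact sign-flip p = 0.875).

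The median number of ChIP reads at the summit, recovered from the deposited values, ran the other way. It was 17 and 20 in lactate deserts and 20 and 21 in control deserts, and in the rest it was 21 and 25 with lactate and 23 and 24 in control. Deserts were lower in 4 of 4 libraries, with a mean difference of -3.75 reads (exact sign-flip p = 0.125). Median local background, in reads on the caller's scale, was also lower in deserts. It was 0.795 and 0.770 with lactate and 0.837 and 0.836 in control, against 1.19 and 1.22 with lactate and 1.05 and 1.11 in control in the rest. A large share of desert peaks sat at the genome-wide minimum that the caller sets for the background, namely 51.3 and 50.6% with lactate and 58.4 and 55.6% in control. In the rest these shares were 27.2 and 25.9% with lactate, and 30.9 and 29.3% in control. The width of desert peaks was lower than that of the rest in 4 of 4 libraries, with a mean difference of -53.75 bp (exact sign-flip p = 0.125).

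Most desert regions were not shared by all libraries. Of the 6478 regions, 1557 held a peak in all 4 libraries, which is 24.0%, against 29.5% of the rest and 29% of all autosomal regions. Another 991 regions, or 15.3%, were found in 3 libraries, beside 15.8% of all regions. A peak in 1 library alone was found for 2382 regions, or 36.8%, beside 30.7% of the rest and 31.3% of all regions. By library, these numbered 419 and 340 with lactate, and 902 and 721 in control. The shares are given side by side without a test, since regions of the same libraries are not replicates.

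Regions in both libraries of a single group were more often control regions. Lactate-only regions, with a peak in both lactate and in neither control library, numbered 222, which is 3.43% of the desert, beside 2.65% of the rest and 2.72% of all regions. Control-only regions numbered 800, or 12.3%, beside 14.8% of the rest and 14.6% of all regions. The lists of the control libraries are longer, and most of this contrast was not seen at equal list length. With equal numbers of peaks per library, 379 desert regions were lactate-only and 412 control-only. The lactate-only share was then 6.91% in deserts and 6.15% in the rest. The 4 pairs made of 1 lactate and 1 control library held between 112 and 152 desert regions each. The higher lactate-only share in deserts depended on how overlap was counted. With a reciprocal overlap of 50% the shares were 4.84% in deserts and 6.22% in the rest.

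Lactate-only regions had narrower peaks than shared regions at a similar median fold. Their median fold enrichment was 8.21 and 8.30 in the lactate libraries, where regions shared by all 4 libraries had medians of 8.21 and 8.33. Their median width was 383.5 and 364 bp, against 515 and 506 bp in shared regions. A narrow peak leaves less room to share 1 bp with a peak of another library. The part of this in the widths was not tested. In control-only regions the control peaks had a median fold of 7.06 and 7.61, and a median width of 464 and 456 bp. Shared regions had control medians of 8.59 and 9.11 in fold and of 649 and 640 bp in width. Peaks of regions found in 1 library had a median of 13 and 15 summit reads with lactate and 16 and 17 in control.

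Desert regions recurred less between libraries than the rest. Of the desert regions of lactate replicate 2, 68.4% held a peak in lactate replicate 3, 70.0% in control replicate 2 and 69.1% in control replicate 3. The rest gave 74.0, 77.4 and 79.2%. Of the desert regions of control replicate 2, 49.8% held a peak in lactate replicate 2, 50.7% in lactate replicate 3 and 69.0% in control replicate 3. The rest gave 53.4, 54.0 and 77.5%. Deserts were lower in 12 of 12 ordered pairs of libraries, with differences from -10.1 to -1.06 percentage points. The lists of the control libraries are longer than those of the lactate libraries, which moves with these shares.

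Of 3007 desert regions with a peak in both control libraries, 1557 also held a peak in both lactate libraries. This is 51.8%, beside 53.0% of the rest and 52.9% of all regions, so the share held in deserts lay near that of the whole genome. This nearness depended on the setting. Where noncoding genes also defined the desert, the share was 41.3% in deserts, beside 52.9% of the rest. With a reciprocal overlap of 50% it was 44.6% in deserts, beside 41.9% of the rest. In the other direction, 73.4% of the 2120 desert regions with a peak in both lactate libraries held a peak in both control libraries, beside 80.5% of the rest and 79.9% of all regions.

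How often a region was held with lactate went with the width of its widest control peak. A lactate peak anywhere in the merged region counts, so a wide control peak leaves more room for an overlap. The part of this counting rule in the rise with width was not tested. The share of desert regions held was 29.4% below 400 bp, 44.3% from 400 to 600 bp, 52.8% from 600 to 1000 bp, 72.2% from 1000 to 2000 bp and 88.7% from 2000 bp. In the rest it was 25.7, 39.0, 51.9, 67.7 and 88.6% in the same bins. Wide regions made up a smaller part of the deserts. The last 2 bins held 16.3 and 4.12% of the desert regions with a peak in both controls, against 23.8 and 8.73% in the rest. Deserts lay above the rest in 5 of 5 width bins, by 0.153 to 5.22 percentage points. This order did not hold under every setting, with 3 of 5 bins at a -log10 q of at least 5, at a distance of 250 kb or without the outer 5 Mb of chromosomes, and 0 of 5 where noncoding genes also defined the desert.

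**Figure D2:**
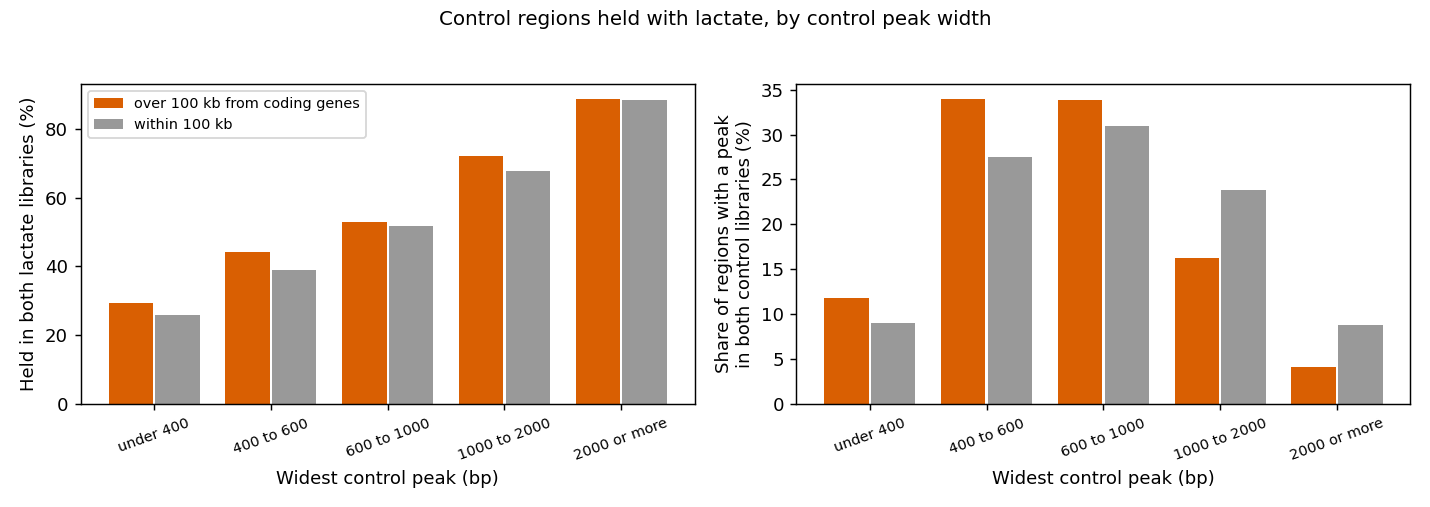
Left, percent of regions with a peak in both control libraries that also held a peak in both lactate libraries, by the width of the widest control peak in bp; right, percent of those regions in each width bin. Orange bars are desert regions and grey bars the rest; the share of desert regions held is 29.4% below 400 bp and 88.7% from 2000 bp.

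Deserts held peaks at a low density that fell with distance from coding genes. Deserts took up 31.3% of the autosomal length and held 7.21 regions per Mb, against 32.4 regions per Mb elsewhere. The lengths include assembly gaps. Per library, deserts held 3.59 and 3.56 peaks per Mb with lactate, and 4.95 and 4.71 in control, against 17.4 and 17.7 with lactate and 24.0 and 24.5 in control in the rest. Deserts were lower in 4 of 4 libraries (exact two-sided sign-flip test, p = 0.125, the smallest possible). The density was 37.9 regions per Mb inside coding genes, 28.4 up to 10 kb away, 21.8 from 10 to 100 kb, 13.6 from 100 to 250 kb, 7.54 from 250 to 500 kb and 2.19 beyond 500 kb.

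Recurrence was lowest beyond 500 kb. The share of regions with a peak in all 4 libraries was 30.2, 26.4, 28.3, 26.4, 22.8 and 15.6% in these 6 bins. The lactate-only share was 2.64, 2.80, 2.60, 2.88, 3.88 and 5.11%. The share of control regions held with lactate stayed at 53.2, 49.6, 53.5, 53.0 and 53.2% up to 500 kb, and was 40.8% beyond. Median summit reads beyond 500 kb were 16 and 18 with lactate and 19 and 20 in control, and inside genes they were 22 and 25 with lactate and 23 and 24 in control. The last bin holds 842 regions, and 183 regions lay over 1 Mb from any coding gene. The median distance of a desert region was 204322 bp.

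**Figure D3:**
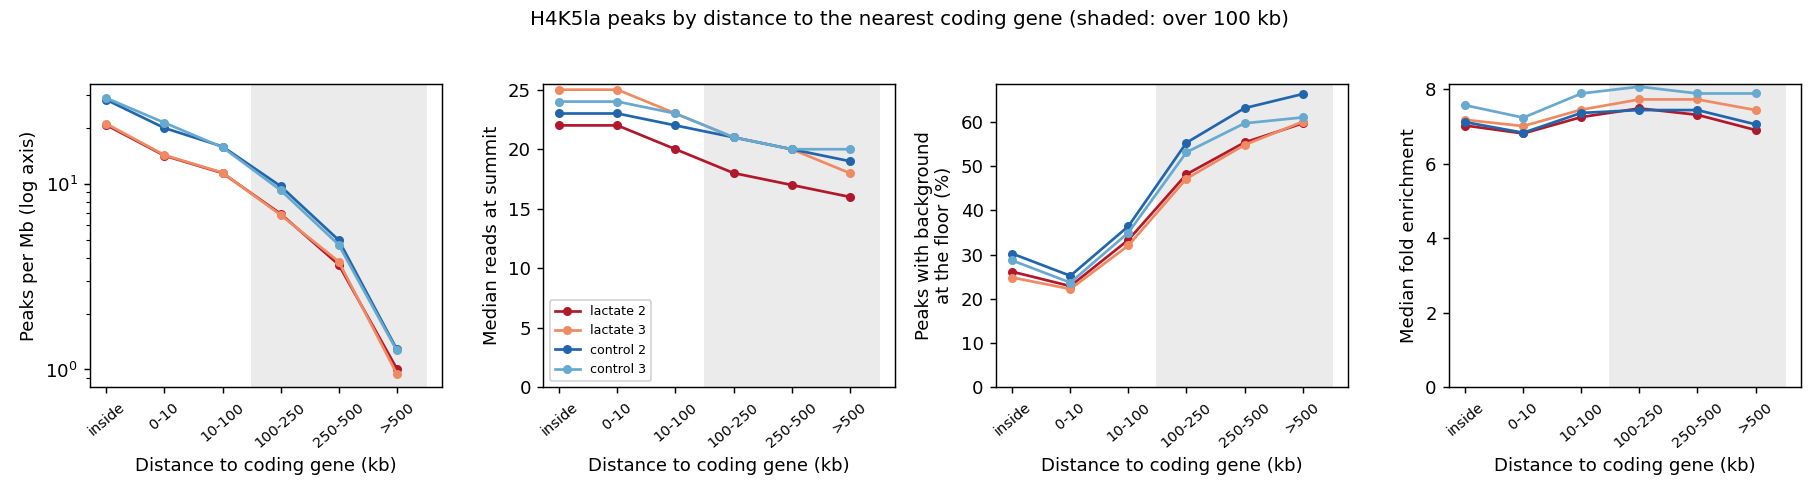
Peaks of each library by distance to the nearest coding gene in kb, with deserts shaded: peaks per Mb on a log axis, median reads at the summit, percent of peaks at the background minimum and median fold enrichment. Each line is 1 library; peaks per Mb fall with distance in all 4 libraries, to 1.01 and 0.9495 with lactate and 1.29 and 1.27 in control beyond 500 kb, while median fold stays between 6.81 and 8.07.

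The regions nearest the 100 kb limit on either side were weak or of middling strength. The nearest inside it lay 100009 bp from TCERG1L on chromosome 10, with a peak of fold 5.03 in control replicate 3, and 100017 bp from GRM4 on chromosome 6, with a peak of fold 7.82 in control replicate 2. The nearest outside it lay 99958 bp from ADRA2C on chromosome 4, with a peak of fold 5.06 in control replicate 3, and 99923 bp from CYP26B1 on chromosome 2, with peaks in 3 libraries.

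Desert regions clustered toward chromosome ends. The outer 5 Mb of the chromosomes made up 6.18% of the desert length and held 2221 desert regions, which is 34.3% of all. The density there was 39.97 regions per Mb, against 5.05 in the remaining desert. Desert regions near the ends were in all 4 libraries in 30.9% of cases, against 20.4% elsewhere, and 58.2% of their control regions were held with lactate, against 47.6% elsewhere. In the rest the share held was 53.0% with the outer 5 Mb included and 50.8% without it. Density and recurrence near the ends were not measured outside deserts, so these traits cannot be called particular to deserts.

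The outer 5 Mb held 82.6% of the desert regions of chromosome 22, 65.1% of those of chromosome 18 and 64.1% of those of chromosome 16, against 0% on chromosome 21. Chromosome 2 held the most desert regions, with 826. Per Mb of desert, chromosomes 22, 20 and 10 were the densest, with 18.8, 17.2 and 15.2 regions, and chromosomes 4 and 3 the sparsest, with 2.04 and 2.81. The ratio of desert peaks with lactate to those in control ran from 0.644 on chromosome 17 to 0.830 on chromosome 16, with a median of 0.737. Both lactate libraries lay below both control libraries on 22 of 22 chromosomes. The control lists are longer as a whole, with a ratio of 0.724 in the rest over all autosomes. The same count by chromosome is not given for the rest, so this split cannot be called particular to deserts.

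**Figure D4:**
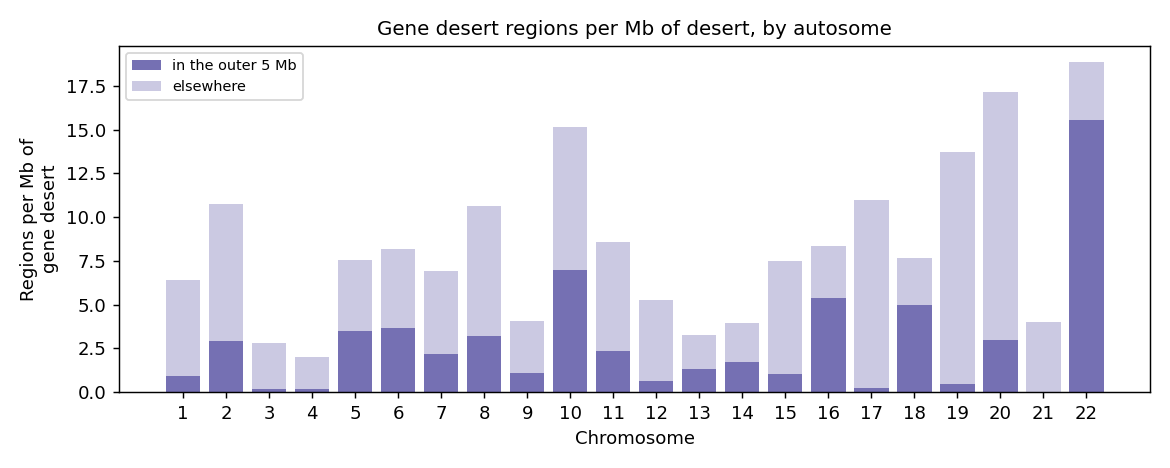
Desert regions per Mb of desert on each of the 22 autosomes, as bars split into regions in the outer 5 Mb of the chromosome (dark) and elsewhere (light). Chromosome 22 is the densest at 18.8 and chromosome 4 the sparsest at 2.04 regions per Mb.

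Desert regions also came in runs. Regions less than 50 kb apart were joined into 2023 runs, of which 1324 held a single region. The 106 runs of 10 or more regions held 3322 regions, or 51.3% of all. The run with the most regions spanned chr22:48852170-49668614, between TAFA5, which encodes a secreted chemokine-like protein, and BRD1, a subunit of histone acetyltransferase complexes. It held 181 regions, with 101 and 107 peaks in the lactate libraries and 158 and 140 in the control libraries. Of its regions, 67 were in all 4 libraries, 1 was lactate-only and 24 were control-only. The second run, at chr8:141619697-142111683 near TSNARE1 and C8orf90, held 141 regions, with 96 and 92 peaks with lactate and 131 and 118 in control. The third run, at chr5:2068555-2634118, ends near IRX2, an Iroquois homeobox transcription factor, and held 107 regions, with 63 and 63 peaks with lactate and 80 and 81 in control. In each run both lactate libraries lay below both control libraries. The runs were chosen for their number of merged regions, to which the longer control lists add. Their peak counts are therefore a description and not a comparison of the groups.

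**Figure D5:**
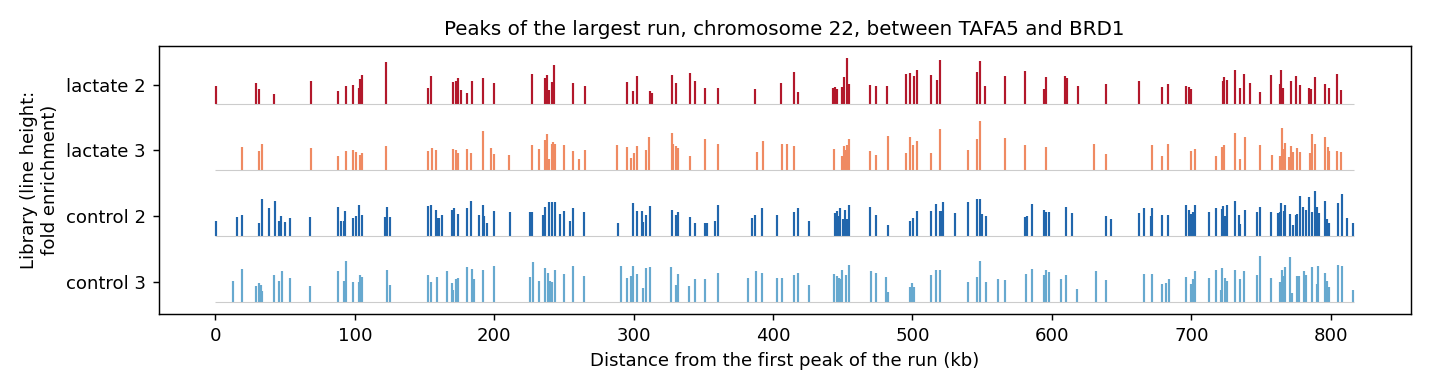
Peaks of each library across the run of 181 desert regions on chromosome 22, by distance in kb from its first peak; each line is a peak and its height the fold enrichment. The lactate libraries, drawn above, hold 101 and 107 peaks and the control libraries 158 and 140, spread over the whole 816 kb.

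Noncoding genes covered a minority of desert regions. Of the 6478 regions, 1858 overlapped a noncoding gene or pseudogene, which is 28.7%, beside 23.1% of the desert length. Genes of lncRNAs overlapped 1630 regions, or 25.2% beside 21.5% of the length, and pseudogenes 215 regions, or 3.32% beside 1.35%. Another 561 regions, or 8.66%, lay over 100 kb from every RefSeq gene of any kind, a class that takes 29.7% of the desert length. Regions inside and outside noncoding genes were alike in recurrence, with 24.7 and 23.8% in all 4 libraries and 52.5 and 51.5% held with lactate.

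The 6 genes outside the RefSeq protein-coding class with the most desert regions were MIR3667HG, LOC105373611, IGH, LOC105373390, LINC01605 and SNHG14. MIR3667HG, a lncRNA gene that hosts a microRNA and lies in the run next to BRD1, held 59 regions, of which 23 were in all 4 libraries, 0 were lactate-only and 10 were control-only. It held 35 and 34 peaks with lactate, and 55 and 49 in control. LOC105373611, a lncRNA gene near HS6ST1, a sulfotransferase gene, held 38 regions, with 21 and 23 peaks with lactate, and 31 and 34 in control. The immunoglobulin heavy chain locus IGH, which is rearranged in B cells, held 30 regions, of which 7 were in all 4 libraries. IGH is not a noncoding gene. It counted as desert because the rule used only genes that RefSeq classes as protein-coding. Immunoglobulin or T cell receptor loci held 41 desert regions, or 0.633%. LOC105373390 held 23 regions, with 17 and 16 peaks with lactate and 20 and 17 in control, so the groups met at 17 peaks there. SNHG14, a long host gene of small nucleolar RNAs at the imprinted UBE3A locus, held 17 regions, with 3 and 3 peaks with lactate and 12 and 9 in control. Only 1 of its regions was in all 4 libraries. LINC01605 held 18 regions, with 7 and 7 peaks with lactate, and 12 and 17 in control. These 6 genes were also chosen by number of merged regions, so their counts do not compare the groups.

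Desert regions were spread over 1259 nearest coding genes, and the 10 with the most held 863 regions, or 13.3%. Genes of developmental regulators were nearest to 642 desert regions, which is 9.91%, beside 4.77% of the desert length. These regions lay next to 67 of the 120 listed genes, at 14.97 regions per Mb. Of the 642 regions, 245 lay next to only 3 of these genes, SALL3, IRX2 and IRX1, and all of the 245 lay in the outer 5 Mb of a chromosome. The other 397 made up 6.13% of the desert regions, beside 4.51% of the desert length, at 9.80 regions per Mb. SALL3, a zinc finger transcription factor, had 108 regions, with 52 and 53 peaks with lactate, and 69 and 58 in control. IRX2 had 77 regions, with 43 and 43 peaks with lactate, and 57 and 53 in control. IRX1, of the same homeobox family, had 60 regions, with 28 and 28 peaks with lactate, and 43 and 38 in control. Of the 642 regions, 159 were in all 4 libraries, or 24.8% beside 24.0% of the whole desert. Of their control regions, 56.6% were held with lactate, beside 51.8% in the whole desert.

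Genes of neuronal adhesion and the synapse were nearest to 275 regions, or 4.25%, beside 10.1% of the desert length, at 3.02 regions per Mb and 68 of the 99 listed genes. Of these, 52 were in all 4 libraries, or 18.9%, and 44.4% of the control regions were held with lactate, beside 51.8% in the whole desert. Lactate-only regions made up 2.96% of the developmental and 3.27% of the neuronal set, and control-only regions 10.4 and 14.5%. The outer 5 Mb of chromosomes held 50.3% of the developmental and 16% of the neuronal regions. The part of this position in the shares was not tested. Both lists were written by hand, and the shares are given without a test.

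The strongest desert regions in all 4 libraries were ranked by mean rank of fold enrichment. The region at chr8:57209632-57210502, 215764 bp from the phosphatase gene BPNT2, had a fold of 27.2 and 38.5 with lactate, and 21.0 and 19.2 in control. These rested on 94 and 100 summit reads with lactate, and 148 and 127 in control. The fold enrichments come from separate lists and cannot be read as a change between groups.

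The next region, at chr20:50295587-50297256, overlaps the lncRNA gene LINC01270 and lies 102896 bp from CEBPB. Its fold was 28.3 and 24.6 with lactate, and 13.5 and 16.3 in control. A region at chr10:130742019-130744482, 347908 bp from TCERG1L, had fold of 21.1 and 16.5 with lactate, and 15.1 and 15.2 in control. A region at chr5:18551556-18552355, 895706 bp from the histone gene H3Y1, had fold of 18.1 and 17.99 with lactate, and 15.1 and 14.8 in control.

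Others were near CIMIP1, near GLI3, a transcription factor of the Hedgehog pathway, and over LOC105379477 with the pseudogene DUX4L35. The region near GLI3, at chr7:42493324-42493851, had fold of 15.9 and 14.7 with lactate, and 12.8 and 16.4 in control. The region near CIMIP1, at chr20:58043124-58043720, had fold of 21.1 and 19.5 with lactate, and 12.1 and 13.97 in control. The region over LOC105379477 had fold of 17.2 and 17.2 with lactate, and 11.7 and 16.2 in control.

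The strongest lactate-only region, at chr7:112621950-112622787, covers the start of LOC101928012 and lies 130887 bp from LSMEM1. Its fold was 23.7 and 16.1, on 54 and 41 summit reads. The next, at chr2:236823198-236823731, lay 240843 bp from ACKR3, an atypical chemokine receptor gene, with fold of 12.0 and 16.9. A region 121135 bp from MKI67, which encodes the proliferation antigen Ki-67, at chr10:128247559-128247978, had fold of 12.5 and 14.3. The others lay near FOXL1, a forkhead transcription factor, TCERG1L and RAP2A, a small GTPase, with fold between 11.7 and 14.4. None of these 6 held a peak in either control library.

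The strongest control-only region, at chr20:48204392-48205440, lay 417764 bp from SULF2, an extracellular sulfatase that acts on heparan sulfate, with fold of 12.4 and 14.8. A region at chr5:1642458-1643069, 118497 bp from LPCAT1, an enzyme of phospholipid remodelling, had fold of 15.9 and 12.8. A region at chr5:114695253-114695912, 198756 bp from KCNN2, a calcium-activated potassium channel gene, had fold of 14.7 and 12.8. Others lay near TOMM20, a subunit of the mitochondrial import receptor, and IRF2BP2, a transcriptional corepressor, with fold between 12.0 and 13.2. The region near TOMM20 was 1472 bp wide and overlapped the lncRNA genes LNCATV and LINC02971.

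The widest desert region, at chr12:34332862-34367435, was 34574 bp wide and lay 304559 bp from ALG10, a glucosyltransferase of protein glycosylation. It held 12 and 16 separate peaks with lactate, and 6 and 5 in control, while the covered bases were 17330 and 17748 with lactate and 31034 and 32615 in control. The next in width were 7364 bp near ALG10B at chr12:38151927-38159290, 6806 bp near POTEA at chr8:43544589-43551394 and 5826 bp in MIR3667HG at chr22:49635695-49641520. These regions were chosen for their merged width, which wide control peaks can set, so their coverage is a description and not a comparison of the groups. Near ALG10B the peaks covered 2399 and 1247 bp with lactate, and 6568 and 6412 bp in control. Near POTEA they covered 2513 and 1463 bp with lactate, and 6603 and 6374 bp in control. In MIR3667HG they covered 4264 and 3962 bp with lactate, and 4914 and 5536 bp in control.

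The desert regions farthest from a coding gene lay near centromeres or short arms of chromosomes 22 and 1. The farthest, at chr22:10698801-10700023, was control-only and lay 4828168 bp from OR11H1, an olfactory receptor gene, with fold of 7.44 and 7.48. Of the other 3, the region at chr22:12692778-12693589 was control-only, the region at chr22:11931285-11932454 was in 3 libraries and the region at chr1:125065910-125066246 was in control replicate 3 alone. How reads of repeated sequence were placed is not given in the sources used here.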

How the data were processed

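H4K5la peaks were measured in 2 lactate and 2 control libraries, grouped by the sample labels. Per the submitters' processing notes, MACS2 2.2.6 and Bowtie2 2.3.4.2 were among the tools and the build was hg38. Every library has its own deposited list, with the authors' fold enrichment (the summit's ratio to background), the deposited -log10 p and -log10 q per peak, and the summit's offset. The lowest -log10 q of a list lay between 2.00 and 2.02.

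Peaks were merged and measured against 19122 autosomal coding genes of the RefSeq table (GRCh38.p14) with pandas 2.3.3, numpy 2.4.6 and scipy 1.17.1 under Python 3.11.15, and plots were drawn with matplotlib 3.10.9. Depth is not stated in the lists. Whole reads at each summit were worked out from the deposited fold and -log10 p, within 0.005 reads for 100% of the peaks in each library, and the method was tested on simulated peaks. Densities use a grid of 1000 bp steps. Libraries were compared by exact permutation of the 4 libraries, and deserts with the rest by exact sign flips over them.

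Regions were named by rule. By mean within-library rank of fold enrichment these were the 8 best in all 4 libraries, the 6 best lactate-only and the 6 best control-only regions. The 4 widest and 4 farthest regions, the 3 runs with most regions and the neighbours of the 100 kb limit were added. So were the 6 genes outside the protein-coding class with most regions. Some regions that the rule takes are left out of the text. The genes SALL3, IRX2 and IRX1 and the start windows were singled out after their values were seen. The members, gene lists and rules were chosen with earlier results of these data known. The recovery of reads and the setting without the outer 5 Mb were chosen after seeing the data. Motifs were planned for peak summits and were searched in start windows instead, since no genome was used here.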

Additional observations from a re-analysis of the deposited data

How the results depend on the processing

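Of 163 values under other settings, 4 changed direction and 28 moved, either a count by over 1.5 times or a share beyond its 95% binomial interval. The other 131 did neither, and those with a test kept their direction, although no p could pass a threshold of 0.05 in these small designs. The lower covered length and width with lactate, and the narrower desert peaks, kept their direction under every setting run. The ratio of desert peaks was 1.02 at equal list length, a setting that cannot test their number because it fixes the list length. The higher fold in deserts was 0.00759 with p = 0.875 (exact sign-flip test), and the difference in share of covered bases 0.0479 points, where every RefSeq gene defined the desert. The share of peaks in deserts differed by -0.116 percentage points at a -log10 q of at least 5, -0.0279 where every RefSeq gene defined the desert and -0.0991 without control replicate 3. With each library left out in turn it ran from -0.0991 to 0.419. The share of desert control regions held with lactate was 48.3% at a -log10 q of at least 5, 60.2% with equal numbers of peaks and 49.4% at 250 kb. It was 41.3% with every RefSeq gene, 44.6% with a reciprocal overlap and 47.6% without the outer 5 Mb. In the rest, under the same settings in the same order, it was 50.9, 62.6, 53.0, 52.9, 41.9 and 50.8%. Leaving out a library gave 39.2 to 63.5% in deserts and 43.0 to 63.6% in the rest. Lactate-only regions numbered 379 with equal numbers, 108 at 250 kb, 17 with every gene and 363 with a reciprocal overlap, and 392 to 641 without a library. Control-only regions numbered 412 with equal numbers, 1291 at 50 kb, 298 at 250 kb and 69 with every gene, and 1100 to 1735 without a library. These counts rise when a library is left out because fewer libraries need to hold or lack a peak. Regions in all 4 libraries numbered 2639 at 50 kb, 513 at 250 kb, 95 with every gene and 870 without the outer 5 Mb, and 1728 to 1913 without a library. The cause of the other moves was not tested. Under the replicate block the share differed by 0.162 points with an exact p of 1, and the number ratio of 0.740, the covered ratio of 0.603 and the width difference of -60.5 bp each had an exact p of 0.5, the smallest possible. The labels give same-numbered libraries a shared number and nothing more. The correlation of their deviations in log2 fold enrichment was 0.000947 over the 20421 regions in all 4 libraries. This value covers fold in shared regions alone, so it cannot show whether same-numbered libraries share a culture or batch. The part of depth in missing peaks was not tested.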

Other observations

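Hairpins of 5 microRNAs overlapped 4 desert regions, and these values belong in no comparison. MIR148A, a microRNA abundant in liver, lies 202215 bp from NFE2L3 and held a peak in lactate replicate 3 alone, and so did MIR205, 151209 bp from CAMK1G. MIR1202 held a peak in lactate replicate 2 and in both control libraries. MIR4507 and MIR4538, in the IGH locus, lie under a region with a peak in both lactate libraries and in control replicate 3.

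The lncRNA gene PVT1, which lies beside MYC, held 13 desert regions, with 8 and 8 peaks with lactate, and 9 and 9 in control. The lncRNA gene EPIC1 held 15 regions, of which 0 were in all 4 libraries, with 5 and 3 peaks with lactate, and 8 and 7 in control. LINC00299, near ID2, held 16 regions, with 10 and 7 peaks with lactate, and 9 and 9 in control, so the groups overlapped there. These 3 genes were chosen after their values were seen.

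The X chromosome, which was left out of the regions described above, held 43 and 42 desert peaks with lactate, and 50 and 41 in control, and the groups overlapped.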
